A study of Homo sapiens with 24 samples.

Results

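The genes of the ATF4 amino acid response were followed here in the ovarian cancer line OVCAR8, which the labels give as high grade serous. They are a fixed list of 45 names, found by symbol among the 58735 genes of the deposited table, and all 45 passed the filter on low counts. By role they fell into 5 classes: 11 stress regulators and effectors, 6 genes of the serine and one-carbon pathway, 7 other enzymes of amino acid metabolism, 8 amino acid transporters and 13 cytosolic tRNA synthetases. The rule that chose them uses no measured value, though the list was drawn up with earlier results of these data known.

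ATF4 is a transcription factor of the integrated stress response. When amino acids run short or unfolded proteins accumulate, kinases such as GCN2 and PERK phosphorylate eIF2, general translation falls, and the ATF4 message is translated more. ATF4 then activates genes for amino acid synthesis, uptake and tRNA charging, together with stress regulators such as DDIT3 and TRIB3, so its activity is set by its protein more than by its mRNA.

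The 24 libraries came from cells kept in ultra-low attachment plates, which hold them in suspension. The labels give conditioned medium and RPMI with 5% serum in a 1 to 1 ratio, in the same words for all groups, fresh medium included. There were 8 groups of 3 libraries. One group had fresh medium, one had medium from vehicle-treated proliferating cells (proliferative medium) and one had medium from cells made senescent with cisplatin (senescent medium). Senescent medium was also given after boiling, as its fraction below 3 kDa (small fraction) and as its fraction above 3 kDa (large fraction). The remaining groups were pre-treated with proliferative or with senescent medium; what they were given afterwards is not in the labels. The labels do not name the cells that conditioned the medium, and every group is the same single line, so the samples show 1 tumour's cells.

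Total counts ran from 14718120 to 21956598 per library, with 4.09% to 6.85% on mitochondrially encoded genes. The labelled line was checked against marker genes. PAX8, the Müllerian lineage factor, had group means of 155 to 283 CPM (depth-scaled counts, on the usual scale), and the keratin KRT8 had 831 to 1262 CPM. MUC16 and CDH1, also markers of such tumours, had at most 0.299 and 0.905 CPM in any group. Of other cell types, the leukocyte gene PTPRC had at most 0.079 CPM and the fibroblast gene DCN at most 0.0206 CPM, while COL1A1 reached 2112 CPM and PDGFRB 92.4 CPM. Nothing says that replicates were separate cultures, so the p-values below measure the spread between samples, which may be technical.

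The RefSeq promoters were searched for the response element that ATF4 binds with C/EBP partners, here as the letters TGATGNAA on either strand, from 250 bases before the gene's start to 50 bases after it (GRCh38.p14). The table held such a window for 32 of the 45 members, and 14 of these (43.8%) held the letters, beside 1217 of 27305 genes in the table (4.46%). The members were listed as genes of the ATF4 response, so their higher share is no independent result about the list. Among the tRNA synthetases 6 of 8 windows held it, among transporters 4 of 7, among stress regulators 3 of 9, among other enzymes 1 of 5 and in the serine pathway 0 of 3. The synthetase windows are shown because this class shares the letters most often, and the other lines show an instance from each of the remaining classes that had any. Capitals mark the match, and each line reads 5′ to 3′ along the gene's strand.
AARS (chr16:70289662-70289717, minus strand): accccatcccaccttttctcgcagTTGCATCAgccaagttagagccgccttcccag
IARS (chr9:92293698-92293734, minus strand): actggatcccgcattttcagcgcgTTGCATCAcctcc
MARS (chr12:57488053-57488082, plus strand): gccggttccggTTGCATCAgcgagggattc
CARS (chr11:3057407-3057436, minus strand): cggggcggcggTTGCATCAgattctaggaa
TARS (chr5:33440956-33440985, plus strand): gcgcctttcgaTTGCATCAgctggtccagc
NARS (chr18:57621804-57621833, minus strand): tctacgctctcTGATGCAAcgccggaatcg
SLC1A5 (chr19:46784880-46784935, minus strand): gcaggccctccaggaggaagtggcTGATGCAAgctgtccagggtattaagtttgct
CHAC1 (chr15:40953238-40953293, plus strand): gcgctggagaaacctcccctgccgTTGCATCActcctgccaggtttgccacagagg
CEBPG (chr19:33374047-33374102, plus strand): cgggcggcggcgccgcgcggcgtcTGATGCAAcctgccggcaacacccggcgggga
ASNS (chr7:97872445-97872500, minus strand): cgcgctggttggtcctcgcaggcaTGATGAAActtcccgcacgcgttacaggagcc
All 6 synthetases and the SLC1A5, CHAC1 and CEBPG windows carried the same 8 letters, TGATGCAA or their reverse complement TTGCATCA, while ASNS carried TGATGAAA. JDP2, SLC7A1, SLC3A2 and SLC1A4 were the other 4 members with a match. A match is a description of the letters only, and its absence from this window (as for PSAT1, PHGDH, STC2 and SLC7A5) says nothing of binding. The table had no entry for NUPR1, INHBE, PSPH, SHMT2, ALDH1L2, GPT2, PYCR1, SLC7A11, GARS, SARS, LARS, YARS and VARS.

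Per unit of gene length, ATF4 was the most abundant member, with a mean of 95.5 FPKM (the deposited length-scaled values) over all libraries. CEBPB (67.3 FPKM), SARS (61.0 FPKM) and AARS (47.8 FPKM) followed. At the other end were SLC6A9 (0.567 FPKM), a glycine transporter, INHBE (0.612 FPKM), an activin subunit, NUPR1 (0.349 FPKM), a small stress protein, and ASNS (0.241 FPKM), which makes asparagine. ASNS, a textbook ATF4 target, had only 6 to 37 counts per library, so only large differences in it could be seen. It overlaps AC079781.5 on the same strand, which had 355 counts over all libraries beside 443 for ASNS. How reads in that overlap were counted is not known, so the ASNS level is uncertain.

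Across the 8 groups, 43 of the 45 members differed (edgeR quasi-likelihood test, Benjamini-Hochberg adjusted p under 0.05), where 70.9% of all 19210 genes tested did. The exceptions were ASNS (adjusted p = 0.151, edgeR) and ALDH18A1 (adjusted p = 0.0847, edgeR), which starts proline synthesis. The members' changes were moderate, with a median ratio of highest to lowest group mean of 1.49, beside 1.61 over all genes. By level, 21 of 45 members (46.7%) were highest in fresh medium and 0 were lowest there, where 16.6% of all genes were highest and 17.5% lowest in it. The lowest group mean of 13 members (28.9%) was in proliferative medium and of 14 (31.1%) in the pre-treated proliferative group, where 10.9% and 9.88% of all genes were lowest. Below, rose and fell mean an edgeR adjusted p under 0.05, differences are log2 fold changes ± an approximate standard error (SE) with 3 libraries a group, and levels are CPM. In bulk RNA, fewer cells in a state and less RNA per cell cannot be told apart.

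**Figure D1:**
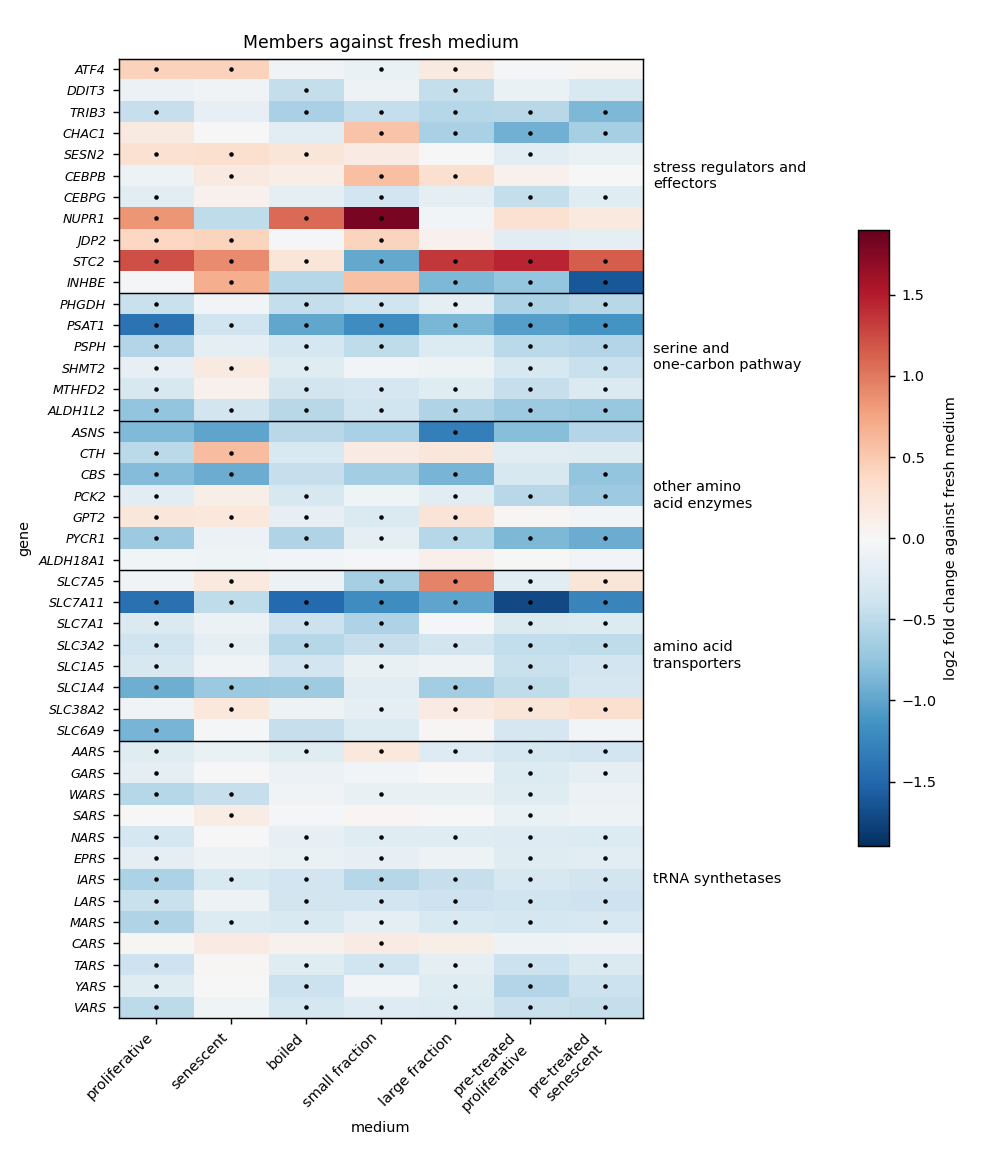
Heat map of the log2 fold change of each of the 45 members (rows, by class) in the 7 other groups (columns) against fresh medium, with red higher, blue lower and a dot where the edgeR adjusted p was under 0.05. The serine pathway and the synthetases are blue in most columns, with the intact senescent medium the palest, while STC2 and ATF4 are red in proliferative and senescent medium.

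ATF4 mRNA itself (ENSG00000128272, chromosome 22, 39519695 to 39522685, GRCh38) was at 222, 219 and 225 CPM in fresh medium. It was at 305, 301 and 300.2 CPM in proliferative medium and at 312, 306 and 286 CPM in senescent medium. Boiled medium gave 209, 211 and 216 CPM, the small fraction 215, 206 and 189 CPM, and the large fraction 248, 250.2 and 251 CPM. All libraries of both intact conditioned media lay above all others, and boiled, small fraction and fresh medium lay close together. The pre-treated libraries, at 243, 199.6 and 216 CPM (proliferative) and 217, 228 and 238 CPM (senescent), overlapped those of fresh medium. ATF4 rose by 0.44 ± 0.05 in proliferative medium (adjusted p = 6.75e-10, edgeR) and by 0.44 ± 0.05 in senescent medium (adjusted p = 1.64e-09, edgeR) against fresh. In the large fraction it rose by 0.169 against fresh (adjusted p = 0.00798, edgeR), which held throughout. The small fraction had a fall (-0.128, adjusted p = 0.0327, edgeR) that was lost in other settings, DESeq2 and limma among them. Between senescent and proliferative medium it did not pass the test (-0.003 ± 0.05, adjusted p = 0.974, edgeR).

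Proliferative against fresh medium showed what medium from proliferating cells did to the list. Of 45 members, 29 fell and 6 rose, where 21.5% of all genes fell and 20.6% rose, and the members' median was -0.28 beside 0.01 for all genes. All 6 serine and one-carbon genes fell, as did 11 of 13 synthetases, 6 of 8 transporters and 4 of 7 other enzymes. The stress regulators were mixed, with 5 rises and 2 falls among 11 and 4 that did not pass. The rises of STC2, ATF4 and JDP2 and the fall of TRIB3 held throughout. The rises of NUPR1 and SESN2 and the fall of CEBPG were lost in other settings. ATF4 and the secreted stress glycoprotein STC2 were among the 6 rises, as was GPT2, which makes alanine (0.22 ± 0.06). Of these 35 calls, 27 held in every other setting tried and with each library left out.

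PSAT1, the transaminase of serine synthesis (chromosome 9, 78297143 to 78330093), had the largest fall of its class. It was at 77.1, 73.9 and 73.7 CPM in fresh medium and at 29.3, 27.3 and 28.4 CPM in proliferative medium. The groups were far apart (-1.40 ± 0.08, adjusted p = 1.46e-19, edgeR). ALDH1L2, a mitochondrial folate enzyme, was at 28.1, 32.9 and 29.3 CPM in fresh and at 17.2, 17.5 and 19.1 CPM in proliferative medium (-0.75 ± 0.10). PHGDH, the first enzyme of the pathway, went from 149, 152 and 154 CPM to 114, 113 and 112 CPM (-0.43 ± 0.06). SHMT2, which moves a carbon from serine to folate in mitochondria, moved least of the 6 (-0.16 ± 0.05), from 198, 193 and 191 CPM to 173, 173 and 174 CPM. None of these groups overlapped.

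Of the transporters, SLC7A11, the cystine and glutamate exchanger (chromosome 4, 138164097 to 138242349), fell most. Fresh medium gave 18.3, 21.7 and 20.2 CPM and proliferative medium 8.39, 8.02 and 6.02 CPM (-1.41 ± 0.13, adjusted p = 9.29e-12, edgeR). SLC1A4, a neutral amino acid transporter, fell from 11.5, 12.3 and 13.7 CPM to 7.44, 5.82 and 6.43 CPM (-0.93 ± 0.13). SLC7A1, which carries arginine and lysine, fell less, from 272, 279 and 273 CPM to 226, 228 and 225 CPM (-0.28 ± 0.04). SLC7A5, the leucine transporter, and SLC38A2, a glutamine transporter, did not pass the test (-0.06 ± 0.05 and -0.07 ± 0.04).

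The largest synthetase fall was that of IARS, which charges isoleucine tRNA (chromosome 9, 92210207 to 92293756). It was at 211, 211 and 216 CPM in fresh medium and at 143, 139 and 136 CPM in proliferative medium (-0.61 ± 0.05, adjusted p = 1.09e-14, edgeR). MARS, the methionine enzyme, went from 165, 161 and 173 CPM to 113, 115 and 109.8 CPM (-0.57 ± 0.05), and WARS, the tryptophan enzyme, fell by 0.54 on the log2 scale. SARS (-0.002 ± 0.05) and CARS (0.02 ± 0.06), the serine and cysteine enzymes, did not pass. Of the 6 synthetases with the 8 promoter letters, AARS, IARS, MARS, TARS and NARS fell and CARS did not pass, while WARS and EPRS (-0.17 ± 0.05), the 2 whose windows lack the letters, also fell. Among other enzymes PYCR1, the last step of proline synthesis, went from 64.7, 68.7 and 73.3 CPM to 39.9, 43.0 and 45.7 CPM (-0.69 ± 0.08).

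STC2 (chromosome 5, 173314713 to 173329503) rose in the same comparison from 50.2, 49.8 and 44.99 CPM to 114, 113 and 113 CPM (1.23 ± 0.07, adjusted p = 8.34e-17, edgeR). JDP2, a repressor that partners with bZIP factors, rose by 0.39 ± 0.10. TRIB3, the pseudokinase that feeds back on ATF4, fell from 26.3, 26.0 and 27.8 CPM to 21.0, 17.1 and 21.1 CPM (-0.43 ± 0.11, adjusted p = 0.000821, edgeR). CHAC1, which breaks down glutathione, and DDIT3 (CHOP) did not pass the test (0.17 ± 0.21 and -0.11 ± 0.13).

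**Figure D2:**
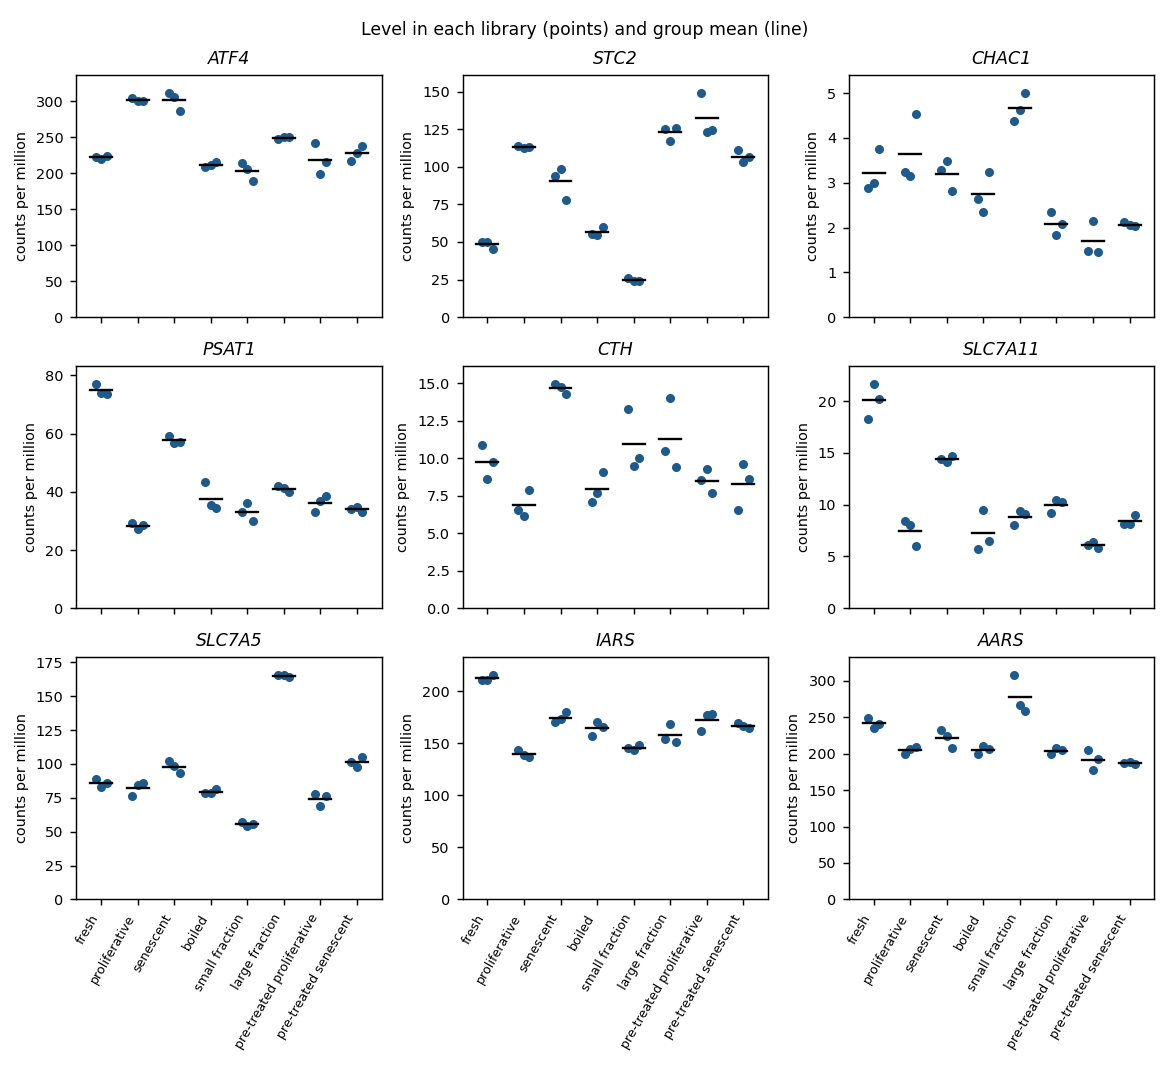
CPM of 9 members (panels, linear axes from 0) in each library (points) of the 8 groups, with the group mean as a line. PSAT1, SLC7A11 and IARS were highest in fresh medium, ATF4 in the intact conditioned media, SLC7A5 in the large fraction, and CHAC1 and AARS in the small fraction.

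Senescent against proliferative medium was the study's central contrast, between medium of senescent and of growing cells. Here 29 members rose and 2 fell, where 16.6% of all genes rose and 12.4% fell, and the median was 0.25 beside -0.01 for all genes. All 6 serine and one-carbon genes, 7 of 8 transporters and 9 of 13 synthetases rose, with 3 of 7 other enzymes and 4 of 11 stress regulators. The 2 falls were STC2 and NUPR1. Of the 29 rises, 19 held in every other setting and with each library left out, and both falls did. The 4 stress regulator rises, those of INHBE, CEBPG, TRIB3 and CEBPB, were not among the 19.

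This contrast and the previous one use the same 3 proliferative libraries. PSAT1 stood at 59.3, 56.7 and 57.0 CPM in senescent medium, above every proliferative library and below every fresh one (1.03 ± 0.08 against proliferative, adjusted p = 3.88e-14, edgeR). CTH, the last enzyme of cysteine synthesis (chromosome 1, 70411218 to 70439851), was at 6.54, 6.18 and 7.85 CPM in proliferative and at 15.0, 14.8 and 14.3 CPM in senescent medium (1.10 ± 0.15, adjusted p = 2.48e-07, edgeR). Its 3 fresh libraries, at 10.9, 8.59 and 9.74 CPM, lay between. SLC7A11 was at 14.4, 14.1 and 14.7 CPM in senescent medium (0.94 ± 0.14 against proliferative, adjusted p = 7.08e-07, edgeR).

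PYCR1, at 69.7, 64.9 and 56.9 CPM in senescent medium, rose by 0.58 ± 0.08, and PCK2, which makes phosphoenolpyruvate in mitochondria, rose by 0.33 ± 0.08. MTHFD2 (0.39 ± 0.06) and ALDH1L2 (0.39 ± 0.10) followed PSAT1 in the folate branch. Among the synthetases the largest rises were TARS (0.42 ± 0.05), VARS (0.41 ± 0.05) and NARS (0.33 ± 0.06), the threonine, valine and asparagine enzymes. The 4 that did not pass were AARS (0.11 ± 0.05), CARS (0.13 ± 0.06), EPRS (0.07 ± 0.05) and WARS (0.10 ± 0.05). SLC38A2 (0.27 ± 0.04) and SLC7A5 (0.25 ± 0.05) rose as well.

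The regulators did not move as a class, with a median of 0.04. CEBPG, a C/EBP factor that pairs with ATF4, rose by 0.29 ± 0.07 (adjusted p = 0.00224, edgeR), with adjusted p = 0.053 under the replicate block with a length and GC trend. INHBE, at 3.29, 3.69 and 3.00 CPM beside 2.01, 2.02 and 2.03 CPM, rose by 0.72 ± 0.26 (adjusted p = 0.0305, edgeR), on 9 to 61 counts per library. Its call was lost under library totals, without the filter on low counts and with each of 5 libraries left out in turn. STC2, at 94.2, 98.7 and 78.1 CPM, fell by 0.33 on the log2 scale (SE 0.07). NUPR1 fell by 1.32 on the log2 scale (SE 0.33), on 11 to 98 counts per library.

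In intact senescent against fresh medium, members changed in both directions, so the small median given next does not mean an unchanged list. There 12 members rose and 9 fell, where 18.2% of all genes rose and 15.5% fell, and 24 did not pass; the median was -0.05 beside 0.00 for all genes. The balance depended on scaling: library totals gave 6 rises and 17 falls, and offsets for gene length and GC content gave 8 and 16. Only 12 of the 21 calls held throughout. STC2 (0.90 ± 0.07), ATF4 and CTH (0.59 ± 0.15) led the rises that held. SLC1A4 (-0.71 ± 0.13), SLC7A11 (-0.48 ± 0.13), WARS (-0.44 ± 0.06), PSAT1 (-0.38 ± 0.07), ALDH1L2 (-0.35 ± 0.10), IARS (-0.28 ± 0.05) and MARS (-0.26 ± 0.04) were the falls that held. WARS, at 69.1, 72.5 and 78.6 CPM, was low in senescent as in proliferative medium (69.0, 67.9 and 69.1 CPM), with all of these below its fresh libraries at 96.7, 99.7 and 103 CPM.

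CBS, which condenses serine with homocysteine, is uncertain throughout. Its near-identical copy CBSL took from 3.1% to 37.5% of the counts of both genes, varying within single groups, and the CBS calls were lost when single libraries were left out. Reads of DDIT3 and MARS, which overlap on opposite strands, could not be told apart where the counting ignored strand, and the same holds for ALDH1L2 with C12orf45, SLC6A9 with CCDC24, GARS with GARS-DT, WARS with WDR25 and YARS with S100PBP.

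After pre-treatment few members passed the test between senescent and proliferative medium. Only SLC7A5 rose and only STC2 fell among the 45, in a comparison where 0.625% of all genes rose and 0.265% fell. SLC7A5 was at 77.8, 69.3 and 76.3 CPM in the pre-treated proliferative and at 101, 97.8 and 105 CPM in the pre-treated senescent group, without overlap (0.45 ± 0.05, adjusted p = 7.97e-07, edgeR). STC2 was at 149, 123 and 124 CPM and at 111, 103 and 107 CPM (-0.31 ± 0.07, adjusted p = 0.0119, edgeR). The STC2 call was lost without pre-treated proliferative library 1 or pre-treated senescent library 2 or 3, in a fit of only the groups compared and with limma.

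PSAT1 illustrates the rest. Its pre-treated proliferative libraries were at 33.1, 36.7 and 38.7 CPM and its pre-treated senescent ones at 34.2, 34.8 and 33.2 CPM, all far under fresh medium and overlapping each other (-0.09 ± 0.07). CTH was at 8.52, 9.26 and 7.66 CPM and at 6.54, 9.63 and 8.63 CPM, also overlapping. PHGDH was at 109, 91.8 and 99.6 CPM and at 104, 100.3 and 113 CPM.

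Whether the direct and pre-treated effects differed was tested as an interaction. For 18 members the pre-treated effect was lower than the direct effect and for 0 it was higher, where 8.19% of all genes were lower and 5.58% higher. The 18 held 5 of 6 serine and one-carbon genes, 6 of 13 synthetases, 3 of 7 other enzymes, 3 of 11 stress regulators and 1 of 8 transporters. CTH (-1.14 ± 0.22, adjusted p = 0.000233, edgeR), PSAT1 (-1.11 ± 0.11, adjusted p = 4.35e-10, edgeR) and PYCR1 (-0.67 ± 0.12, adjusted p = 4.59e-05, edgeR) differed most among enzymes, with VARS (-0.44 ± 0.07) and IARS (-0.37 ± 0.07) among synthetases. For SLC7A5 the difference was 0.20 ± 0.08 and for SLC7A11 -0.47 ± 0.20, and neither passed. The calls held for 13 of the 18. Under library totals, with a mean FPKM of at least 1 and with length and GC offsets, 1 member was called higher. Without pre-treated proliferative library 1, 2 members were called higher.

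**Figure D3:**
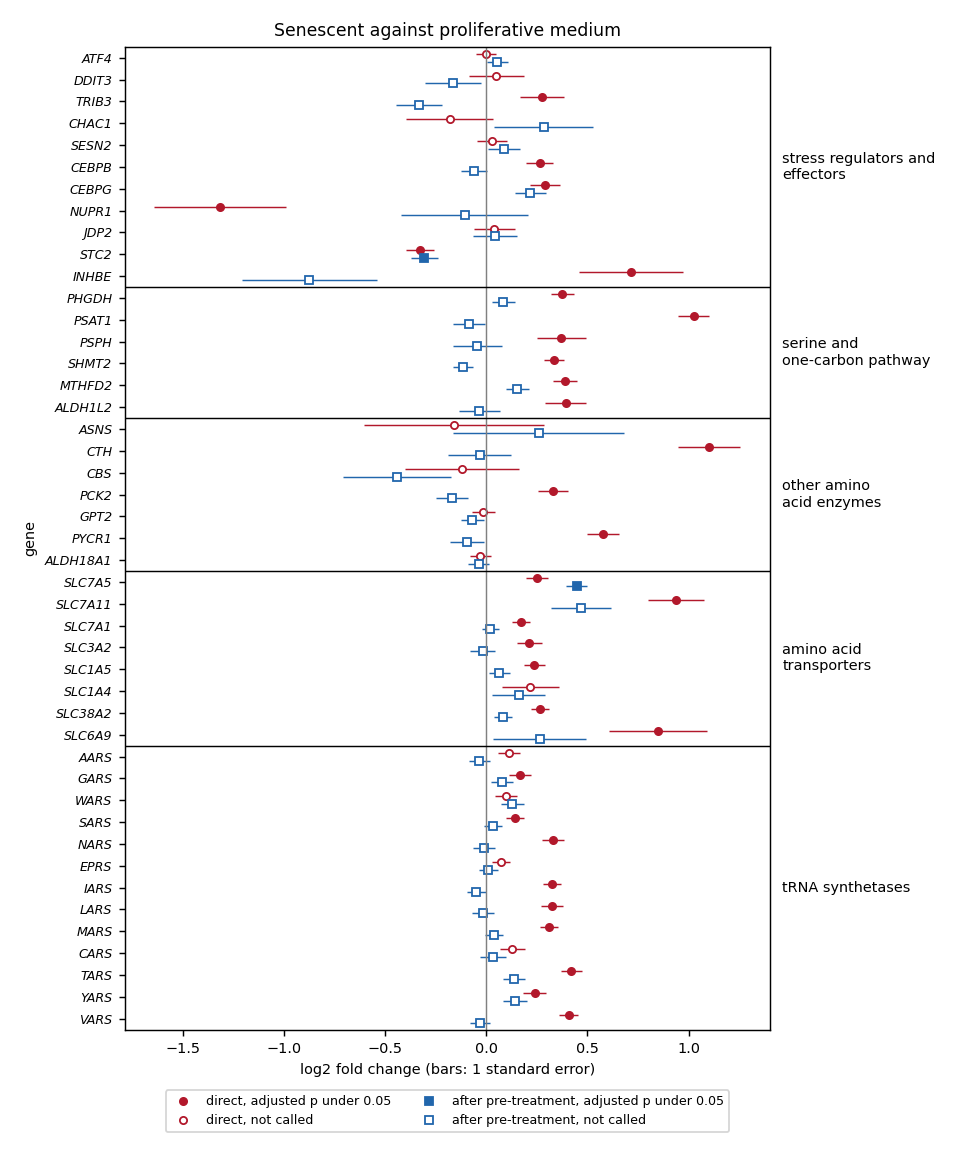
Log2 fold change of senescent against proliferative medium for each member, given directly (red circles) and after pre-treatment (blue squares), with bars of 1 SE and filled symbols where the edgeR adjusted p was under 0.05. Direct values lie right of 0 for most members, while among pre-treated values only those of SLC7A5 and STC2 passed the test, with INHBE (-0.88 ± 0.33) and SLC7A11 (0.47 ± 0.15) farther from 0 on wider bars.

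Against fresh medium the list was lowered in both pre-treated groups. In the pre-treated proliferative group 31 members fell and 2 rose, where 16.7% of all genes fell and 15.1% rose. In the pre-treated senescent group 27 fell and 3 rose, where 15.6% fell and 14.6% rose. All 6 serine and one-carbon genes fell in both, with 12 and 10 of 13 synthetases. SLC7A11 was at 6.15, 6.35 and 5.82 CPM in the pre-treated proliferative group (-1.71 ± 0.14, adjusted p = 1.18e-13, edgeR) and at 8.14, 8.18 and 8.98 CPM in the pre-treated senescent group (-1.25 ± 0.13, adjusted p = 3.56e-10, edgeR).

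PYCR1 fell in both (-0.85 ± 0.08 and -0.95 ± 0.08), as did YARS, the tyrosine enzyme (-0.55 ± 0.06 and -0.41 ± 0.06). YARS was at 59.8, 56.7 and 58.5 CPM and at 63.2, 64.2 and 65.7 CPM, beside 85.9, 82.0 and 88.1 CPM in fresh medium. The rises were STC2 and SLC38A2 in both groups and SLC7A5 after senescent medium. ATF4 did not pass in either (-0.02 ± 0.05 and 0.04 ± 0.05). INHBE was at 0.577, 0.606 and 0.811 CPM in the pre-treated senescent group, its lowest level (-1.62 ± 0.31 against fresh, adjusted p = 7.26e-05, edgeR).

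Boiling the senescent medium lowered the list. Against intact senescent medium 27 members fell and 2 rose, where 14.7% of all genes fell and 11.2% rose, and the median was -0.26 beside 0.00 for all genes. The falls took in 7 of 11 stress regulators, 6 of 8 transporters, 4 of 6 serine genes, 4 of 7 other enzymes and 6 of 13 synthetases, and 27 of the 29 calls held throughout. ATF4 fell by 0.51 on the log2 scale (SE 0.05, adjusted p = 6.07e-11, edgeR), and its libraries did not overlap those of intact medium. SLC7A11, at 5.75, 9.45 and 6.46 CPM after boiling, fell by 1.01 on the log2 scale (SE 0.14), and CTH, at 7.07, 7.66 and 9.05 CPM, fell by 0.88 on the log2 scale (SE 0.15).

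PSAT1 was at 43.3, 35.3 and 34.4 CPM in boiled medium (-0.62 ± 0.07, adjusted p = 1.18e-08, edgeR), and STC2 was at 55.5, 54.5 and 59.7 CPM, far below intact senescent medium and just above fresh (-0.67 ± 0.07 against senescent). INHBE, at 1.67, 1.11 and 1.43 CPM, fell by 1.24 on the log2 scale (SE 0.26). The 2 rises were NUPR1 (1.55 ± 0.32) and WARS (0.37 ± 0.06). WARS was at 97.0, 92.4 and 95.0 CPM, overlapping its fresh libraries, and moved opposite to YARS (-0.42 ± 0.06) and TARS (-0.25 ± 0.05). Against fresh medium, boiled medium had 25 falls and 3 rises, where 13.9% of all genes fell and 14.0% rose, and SLC7A11 was lowest (-1.48 ± 0.13).

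The small fraction lowered more members than it raised. Against intact senescent medium 22 members fell and 6 rose, where 22.7% of all genes fell and 19.9% rose, and under library totals 17 fell and 8 rose. Serine genes fell (5 of 6, PSAT1 most at 32.9, 36.1 and 30.0 CPM, -0.81 ± 0.08), as did 5 of 8 transporters. The rises were NUPR1, CHAC1, CEBPB, SLC1A4, AARS and WARS, beside 4 falls among the stress regulators and 5 among the synthetases.

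STC2 fell from 94.2, 98.7 and 78.1 CPM to 26.1, 23.9 and 23.8 CPM, under its level in fresh medium (-1.88 ± 0.08, adjusted p = 2.02e-21, edgeR). SLC7A5 (chromosome 16, 87830023 to 87869488) fell from 102, 98.3 and 93.6 CPM to 57.4, 54.1 and 55.3 CPM (-0.82 ± 0.06, adjusted p = 1.98e-16, edgeR). ATF4 fell by 0.57 on the log2 scale (SE 0.05). Each of the 3 had groups far apart.

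AARS, the alanine enzyme (chromosome 16, 70252295 to 70289543), rose from 233, 225 and 207 CPM to 308, 266 and 259 CPM (0.33 ± 0.05, adjusted p = 1.44e-06, edgeR), its highest group. CEBPB, a C/EBP factor, rose from 132, 133 and 137 CPM to 169, 195 and 166 CPM (0.40 ± 0.06, adjusted p = 4.37e-06, edgeR). NUPR1 rose from 0.873, 1.19 and 0.703 CPM to 3.70, 5.27 and 4.49 CPM (2.28 ± 0.31, adjusted p = 4.25e-08, edgeR). CHAC1 (chromosome 15, 40952962 to 40956519), at 4.37, 4.62 and 5.01 CPM beside 3.29, 3.50 and 2.81 CPM, rose by 0.55 ± 0.21 (adjusted p = 0.0304, edgeR). The CHAC1 call was lost with DESeq2, without the filter on low counts and without any of 4 single libraries. Among the synthetases TARS (-0.40 ± 0.05) fell while AARS and WARS (0.30 ± 0.06) rose, and MARS (0.08 ± 0.04) did not pass.

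The large fraction, too, lowered more members than it raised. Against intact senescent medium 21 members fell and 4 rose, where 10.0% of all genes fell and 8.14% rose, and 17 of the 25 calls held throughout. SLC7A5 rose to 166, 166 and 164 CPM, its highest group (0.75 ± 0.05, adjusted p = 6.74e-15, edgeR), and STC2 rose to 125, 117 and 126 CPM (0.44 ± 0.07). WARS rose by 0.30 ± 0.06, and the ALDH18A1 rise (0.17 ± 0.05) was lost without the filter on low counts and without any of 3 single libraries.

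INHBE, at 0.837, 1.10 and 1.47 CPM, fell by 1.55 on the log2 scale (SE 0.27, adjusted p = 3.87e-05, edgeR). PSAT1, at 42.1, 41.4 and 39.9 CPM, fell by 0.49 on the log2 scale (SE 0.07), SLC7A11 by 0.53 (SE 0.13) and PYCR1 by 0.43 (SE 0.08). ATF4 fell by 0.27 on the log2 scale (SE 0.05), to between its levels in fresh and in intact senescent medium. LARS (-0.29 ± 0.05) and YARS (-0.25 ± 0.06) led 7 falls among the synthetases.

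**Figure D4:**
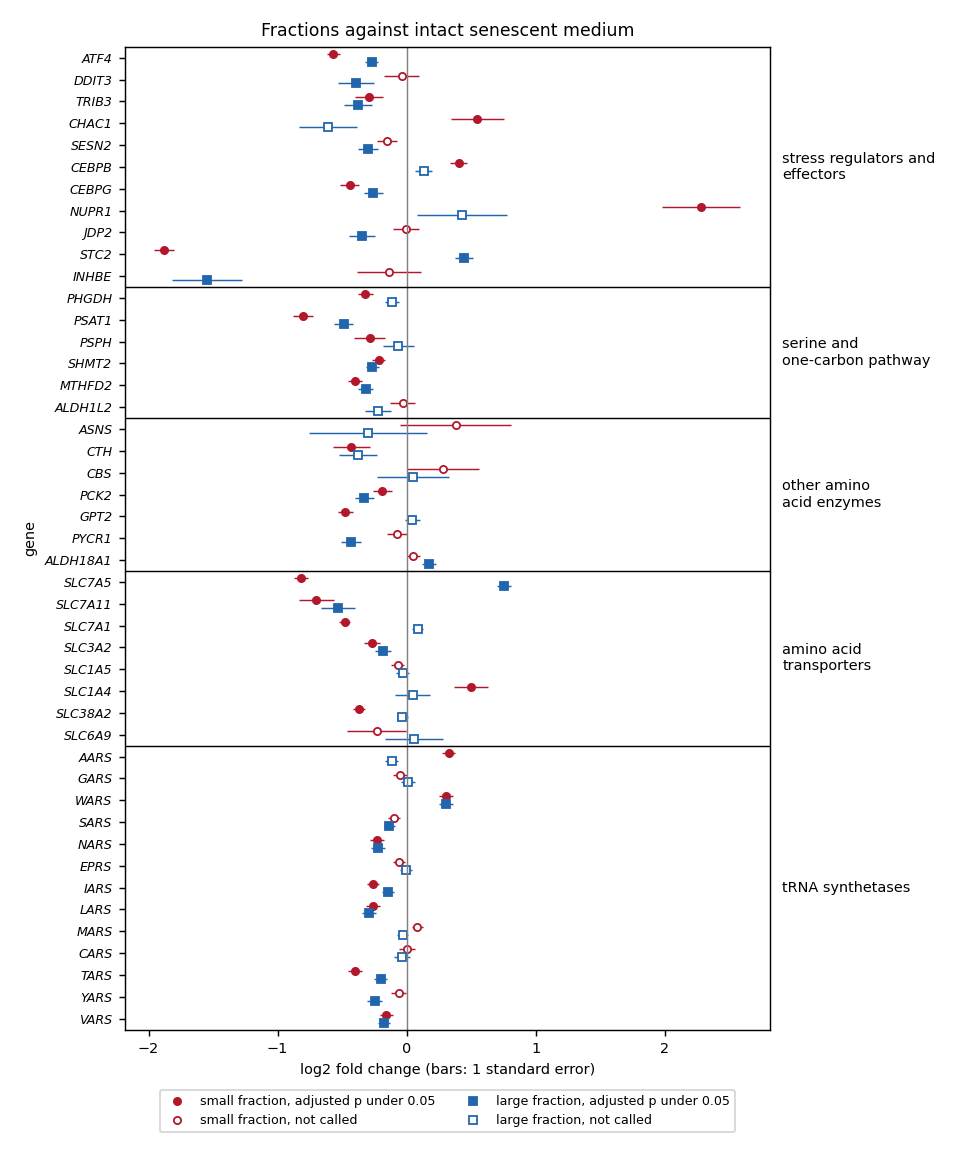
Log2 fold change of the small fraction (red circles) and the large fraction (blue squares) against intact senescent medium for each member, with bars of 1 SE and filled symbols where the edgeR adjusted p was under 0.05. STC2 and SLC7A5 point in opposite directions in the 2 fractions, NUPR1 and AARS rise in the small fraction, and PSAT1, SLC7A11, LARS and TARS lie left of 0 in both.

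Set against each other, the small fraction held 11 members higher and 9 lower than the large fraction, where 16.8% of all genes were higher and 18.3% lower. Without small fraction library 1 the count was 7 higher and 10 lower. The largest differences downward in the small fraction were those of STC2 (-2.32 ± 0.08, adjusted p = 1.56e-24, edgeR) and SLC7A5 (-1.57 ± 0.05, adjusted p = 1.33e-26, edgeR). SLC7A1 (-0.57 ± 0.04), GPT2 (-0.52 ± 0.06) and SLC38A2 (-0.34 ± 0.04) were lower there as well.

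Higher in the small fraction were NUPR1 (1.85 ± 0.28), INHBE (1.41 ± 0.27), CHAC1 (1.16 ± 0.21), SLC1A4 (0.45 ± 0.13), AARS (0.44 ± 0.05) and PYCR1 (0.36 ± 0.08). The CHAC1 libraries of the large fraction, at 2.36, 1.84 and 2.07 CPM, lay under all 3 of the small fraction. SLC7A11 (-0.17 ± 0.14), LARS (0.03 ± 0.05), WARS (-0.002 ± 0.05) and NARS (-0.001 ± 0.05) did not pass between the fractions.

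Both fractions lay under fresh medium for much of the list. In the small fraction 25 members fell and 6 rose, where 22.5% of all genes fell and 22.1% rose, and in the large fraction 23 fell and 6 rose, where 13.0% fell and 13.9% rose. PSAT1 fell in both (-1.18 ± 0.07 and -0.87 ± 0.07), as did SLC7A11 (-1.18 ± 0.13 and -1.01 ± 0.13), IARS (-0.55 ± 0.05 and -0.43 ± 0.05) and LARS (-0.36 ± 0.05 and -0.39 ± 0.05). These comparisons share the 3 fresh libraries.

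SLC6A9 fell in proliferative against fresh medium, from 3.16, 4.10 and 3.08 CPM to 1.57, 2.32 and 1.69 CPM (-0.88 ± 0.24, adjusted p = 0.00267, edgeR). In senescent medium it was at 4.50, 3.03 and 2.56 CPM, above every proliferative library (0.85 ± 0.24, adjusted p = 0.00649, edgeR), with adjusted p = 0.109 without senescent library 1. SLC3A2, the heavy chain that carries SLC7A5 and SLC7A11 to the membrane, fell against fresh medium in all 7 other groups, from -0.17 ± 0.06 in senescent to -0.54 ± 0.06 in boiled medium, and only the senescent call was lost in other settings (DESeq2, limma and 5 single libraries left out). SLC1A5, the glutamine transporter, fell in 5 of the 7, as did PSPH, the last enzyme of serine synthesis, and EPRS, the glutamate and proline enzyme. Of these, the small fraction call of SLC1A5, the boiled call of PSPH and the proliferative, boiled and small fraction calls of EPRS were lost in other settings, and the EPRS difference in the small fraction turned sign with length and GC offsets. GARS, the glycine enzyme, fell in 3 of the 7, by at most 0.27 on the log2 scale. SESN2, an amino acid sensor that restrains mTORC1, rose in proliferative (0.28 ± 0.08), senescent (0.31 ± 0.08) and boiled medium (0.23 ± 0.08), calls that were lost with length and GC offsets. The boiled call was also lost without fresh library 2 or boiled library 1. SESN2 fell in the pre-treated proliferative group (-0.215, adjusted p = 0.0292, edgeR), a call lost in 3 other settings and without any of 4 single libraries. DDIT3 passed against fresh medium only in boiled medium (-0.46 ± 0.14) and the large fraction (-0.45 ± 0.14), each lost when either of 2 libraries was left out. ALDH18A1 passed in 1 comparison, the large fraction against senescent medium, and ASNS in 1, the large fraction against fresh medium (-1.30 ± 0.42), on its few counts and not without fresh library 3 or large fraction library 2.

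Genes of the pathway outside the 45 were read from lists. Their counts stand beside 21.5% of all genes that fell and 20.6% that rose in proliferative against fresh medium, and 16.6% that rose and 12.4% that fell in senescent against proliferative medium. Of 10 other cytosolic synthetases and scaffold proteins, 3 fell and 2 rose in the first of these comparisons, shares close to those of all genes. In the second, 5 of the 10 rose and 0 fell, with a median of 0.18, the direction of the member synthetases. DARS, the aspartate enzyme, rose in the first from 149 ± 1.38 to 289.7 ± 6.51 CPM (SD, n = 3), against the direction of the member synthetases (0.96 ± 0.05, adjusted p = 1.11e-21, edgeR). DARS stood at 278 ± 8.08 CPM in senescent medium and at 126 ± 6.79 CPM in the small fraction (-1.14 ± 0.05, adjusted p = 2.61e-24, edgeR). Of 17 mitochondrial synthetases, 8 fell and 0 rose in proliferative against fresh medium, and 6 rose and 1 fell in senescent against proliferative medium, with MARS2 leading both (-0.80 ± 0.14 and 0.54 ± 0.15).

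Among 6 folate and glycine enzymes, MTHFD1 (-0.51 ± 0.04) and GCSH (-1.26 ± 0.26) were among 3 falls in proliferative medium. SHMT1, the cytosolic partner of SHMT2, rose with the members in senescent against proliferative medium (0.53 ± 0.06, adjusted p = 3e-09, edgeR). Of 14 genes of the eIF2 pathway, 5 fell in proliferative against fresh medium, EIF2AK4, the GCN2 kinase, among them (-0.37 ± 0.06), and 4 rose in senescent against proliferative medium, EIF2AK4 again among them (0.23 ± 0.06).

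Of 15 other reported ATF4 targets 12 were tested. In proliferative against fresh medium, where most members fell, 4 of these 12 rose and 1 fell. In senescent against proliferative medium 2 of them rose, a share near that of all genes, and 4 fell. DDIT4, an mTORC1 inhibitor also induced by low oxygen, fell there (-0.60 ± 0.10, adjusted p = 1.34e-05, edgeR), and EIF4EBP1, a translation repressor, rose (0.52 ± 0.07, adjusted p = 1.38e-07, edgeR). GDF15, a stress cytokine, rose in the small fraction, from 0.645 ± 0.688 CPM in intact senescent medium to 3.37 ± 0.808 CPM (SD, n = 3; 2.36 ± 0.48, adjusted p = 0.000118, edgeR). Of the amino acid sensors, SESN3 was the 1 that passed in senescent against proliferative medium (-0.32 ± 0.07).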

How the data were processed

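The authors' deposited count table covers 24 libraries of OVCAR8 cells, with FPKM beside the counts for every library, per the file headers. STAR 2.6.1, DESeq2 (version 2) and GRCh38 appear in the submitters' processing notes. How reads were counted, on which strand and with which annotation is not given in the sources used here, and without strand overlapping genes can share reads.

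A robust quasi-likelihood model of edgeR 4.0.16 (R 4.3.3), with TMM factors of 0.957 to 1.03, filterByExpr and 1 mean per group, left 16 residual degrees of freedom. It kept 19210 genes, over which two-sided p-values were adjusted (Benjamini-Hochberg, threshold 0.05). The approximate SE is the size of the log2 change over the root of F. CPM used TMM factors; FPKM served only to compare genes. The scripts were tested on simulated data.

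The members and lists were chosen with earlier results of these data known. Library values are given for ATF4 and up to 4 members a class with the largest range between groups, among those that differed with a mean FPKM of at least 1. Per comparison and class up to 3 members with the largest called change were to be cited, and up to 2 genes per outside list. Not all of these are given: the changes of PSPH, CBS, CTH and SLC3A2 in proliferative against fresh medium, for example, are left out. Other members and genes named were chosen after their values were seen. Other settings were DESeq2 1.42.0, limma 3.58.1 on log2 FPKM, other scalings and filters, length and GC offsets, a replicate block, fewer groups and each library left out.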

Additional observations from a re-analysis of the deposited data

Results flagged for a closer look

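The effect of senescent against proliferative medium after pre-treatment was compared with the direct effect by an interaction term, and 18 members differed (edgeR adjusted p under 0.05), all with the lower value after pre-treatment. Values are the pre-treated minus the direct log2 effect, and their cause was not tested. Among stress regulators they were -0.61 for TRIB3, -0.33 for CEBPB and -1.59 for INHBE, the last on few counts. In the serine and one-carbon pathway they were -1.11 for PSAT1, -0.45 for SHMT2, -0.43 for ALDH1L2, -0.29 for PHGDH and -0.24 for MTHFD2. Among other enzymes they were -1.14 for CTH, -0.67 for PYCR1 and -0.50 for PCK2, and among transporters -0.18 for SLC38A2. Among the synthetases they were -0.44 for VARS, -0.37 for IARS, -0.34 for NARS, -0.34 for LARS, -0.28 for TARS and -0.28 for MARS. The calls of CEBPB, ALDH1L2, PHGDH, MTHFD2 and SLC38A2 were lost under library totals. In the pre-treated pair itself 0 of these 18 passed the threshold; SLC7A5 and STC2, which did, were not among the 18.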

How the results depend on the processing

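The counts of members called stayed within 1.5 times their value under every setting run, except in the pre-treated pair. There 2 members were called, and 1 when only the groups compared were fitted and with limma on log2(FPKM + 0.5) or log2(FPKM + 0.05); leaving out single libraries gave 1 to 2. Of 3950 values of the 360 member calls under other settings, 3720 kept their direction and side of the threshold, 224 lost the threshold and 6 turned sign; of 2268 with a library left out, 2034 kept both and 234 lost the threshold. The 6 were under the length and GC offsets, with and without the replicate block, with the same values in both: CEBPB in senescent against fresh medium (-0.084), and SLC38A2 (0.008) and EPRS (0.014) in the small fraction against fresh medium. Against the count of 31 for senescent against proliferative medium, other settings gave 24 to 31 and left-out libraries 27 to 30.

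The replicate numbers showed no pairing across all groups: of 28 pairs of groups, 0 had all 3 same-number correlations over 0.1, and the 84 correlations ran from -0.428 to 0.606. Of the 84, 18 were over 0.1. The pre-treated proliferative and small fraction groups had 0.606 for number 1 and 0.331 for number 3. This rule cannot exclude a batch shared by some libraries. With the replicate block the counts were 30 for senescent against proliferative medium, 35 for proliferative against fresh and 18 for the interaction. Low counts limit ASNS, INHBE, NUPR1, CHAC1 and SLC6A9.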
